A study of Arabidopsis thaliana with 20 samples.

Results

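The genes described here are nuclear Arabidopsis thaliana genes outside the named photosynthesis genes whose array signal was lower after plants had spent 96 h at low CO2. They were chosen from the measured values. A probe had to be tied to exactly 1 gene, to hold at least 6 values above 0 among the 10 columns of each group, and to have a mean log2 signal at least 0.5 lower in low CO2 than in normal CO2, each column being centred on its median. Of 3439 probes, 692 were tied to 1 gene and 642 of these held enough values. The threshold was reached by 58 of the 642 (9.03%), and by 13.1% of all 3224 probes with enough values. LHB1B2, PSAN and PSBW, which encode photosystem and antenna proteins, were among the 58 and are left out, which leaves 55 members. CHLM was also to be left out but did not reach the threshold. The low minus normal difference chose the members, so every such difference below is a description. Where a limma call of a member is stated, it describes the fit and is not read as a test of that member.

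Both groups were wild-type plants of the ecotype Columbia 0. One was kept at a normal CO2 level, and the other spent its last 96 h at 0.003% CO2 by volume. The labels name no tissue or plant age and give 10 numbered samples a group, marked 0d and 4d in their titles, so CO2 level and time cannot be told apart. None of the 9 leaf, root and seed marker genes looked up (3 each) had a probe of its own, so the tissue could not be checked.

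Column totals of the deposited intensities lay between 3495 and 3797. In 20 of 20 columns the deviation from the group mean resembled most that of the neighbouring number (1 with 2, 3 with 4 and so on). Correlations over probes with the neighbour were 0.29 to 0.87, against at most 0.16 with any other column of the same group. Neighbours were averaged, which gives n = 5 averaged pairs a group. Nothing in the labels says that pairs came from separate plants, so SDs and SEs cover only how far these samples differ, and part of that may be technical. Every level below is log2 signal of an averaged pair relative to the column median, and values for the 5 pairs are given in the order of their column numbers. Levels of different probes are not amounts of transcript and are compared only as brightness. A probe is called bright where its mean level in normal CO2 lay above the column median, and dim otherwise, a split made after the values were seen that put 15 members among the bright and 40 among the dim. No background signal was used here, so the dimmest values cannot be told from background. In RNA of whole samples, fewer cells that hold a transcript and less of it in each cell cannot be told apart.

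CO2 is the substrate that Rubisco fixes, and when it is scarce Rubisco takes up more oxygen and photorespiration grows relative to carbon gain. The members are not one pathway. The reference gene table gave a symbol other than the locus code to 7 of them, and a named synonym to AT2G23070. Those 8 cover a metal-binding protein, a redox repair enzyme, an enzyme of histidine synthesis, a protein kinase subunit, a regulator of flower development, and 3 genes known mainly by how their transcripts respond. The other members carry only a locus code in the table and are given no role here. The genes of 5 members were also among those of a probe tied to several genes, which was not used. The word photosynthesis in the choice of members therefore refers to the 4 names left out, and any part of the unnamed members in photosynthesis was not tested.

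CUTA (AT2G33740) encodes a plastid protein related to the bacterial CutA proteins, which bind copper. Its deposited intensity ran from 3.04 to 6.13 with a median of 3.91 over the 10 normal CO2 columns, and from 1.62 to 3.06 with a median of 2.62 in low CO2. On the centred log2 scale the normal CO2 pairs were at 2.73, 3.49, 3.62, 2.99 and 3.47, and the low CO2 pairs at 2.46, 2.58, 2.88, 1.83 and 2.0. The low CO2 pair of columns 5 and 6 lay above the lowest normal CO2 pair, and the other 4 were under the whole normal CO2 range. The level was 1.88-fold lower in low CO2, a log2 difference of -0.91 ± 0.24 (SE from limma), which stayed between -1.04 and -0.78 when any 1 pair was left out. Among 17 genes of plastid metal handling and iron-sulfur cluster assembly that were looked up, CCS (AT1G12520), the copper chaperone of superoxide dismutase, was the other gene with a probe of its own. Its log2 difference was 0.15 ± 0.15 (SE), from 1.71 in normal CO2 to 1.86 in low CO2, so the list held 1 member of 2 measured genes. Neither passed limma's threshold in either direction in the main fit, though some other fits called CUTA lower.

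DI21 (AT4G15910, drought-induced 21) is a gene known for a transcript that accumulates under drought and abscisic acid. Its intensity had a median of 1.30 in normal CO2 columns and 0.87 in low CO2 columns. Normal CO2 pairs stood at 1.30, 1.18, 1.33, 1.6 and 2.39, and the low CO2 pairs at 1.0, 1.10, 0.27, 0.86 and -0.23. The groups did not overlap, although the gap between them was 0.08, and columns 9 and 10 held both the highest normal CO2 and the lowest low CO2 value. The difference was -0.96 ± 0.28 (SE), or 1.95-fold lower, with a range of -1.08 to -0.75 without 1 pair. DI21 was the 1 gene with a probe of its own among 23 drought and abscisic acid response genes looked up. It did not pass limma's threshold in the main fit, though some other fits called it lower. Of 8 genes known to be induced by sugar starvation or darkness, none had one.

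CCL (AT3G26740, CCR-like) is known for an unstable transcript whose level and stability follow the circadian clock. The normal CO2 pairs were at 2.47, 2.89, 3.19, 3.38 and 3.96 and the low CO2 pairs at 3.0, 2.79, 2.79, 2.43 and 1.27. The groups overlapped, with 2 of 5 low CO2 pairs under the whole normal CO2 range. The difference of -0.72 ± 0.33 (SE) became -0.42 without the low CO2 pair of columns 9 and 10. The labels give no hour of harvest, so whether the groups were taken at the same time of day is not known.

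SRX (AT1G31170) encodes sulfiredoxin, which repairs 2-Cys peroxiredoxins that have been overoxidised by peroxide. This probe was dim, with a median intensity of 0.0543 in normal CO2 and 0.0446 in low CO2, where 1 column was listed at 0. The normal CO2 pairs were at -2.60, -3.37, -2.67, -2.94 and -2.95, and the low CO2 pairs at -4.57, -6.33, -3.03, -3.05 and -3.32. The 3 higher low CO2 pairs lay within the normal CO2 range, and the difference of -1.16 ± 0.60 (SE) became -0.59 without columns 3 and 4 of low CO2. It also moved with the treatment of low values, to -0.43 with a pseudocount and to -1.92 with zeros set to the lowest positive value.

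AT-HF (AT4G26900, HISN4) encodes a plastid enzyme of histidine synthesis. Its pairs were at -1.11, -0.32, -0.14, -0.04 and 0.26 in normal CO2 and at -0.73, -0.95, -0.20, -0.59 and -1.68 in low CO2. The groups overlapped over most of their range, with 1 low CO2 pair under the whole normal CO2 range, and the difference was -0.56 ± 0.29 (SE), or -0.35 without low CO2 columns 9 and 10.

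AT2G23070 (CKA4, CK2 alpha cp) encodes the plastid catalytic subunit of casein kinase 2, a serine/threonine protein kinase. Its pairs were at -2.06, -2.06, -2.12, -2.62 and -2.50 in normal CO2 and at -2.11, -2.03, -2.43, -2.90 and -4.46 in low CO2. The difference of -0.51 ± 0.42 (SE) rested on the low CO2 pair of columns 9 and 10, without which it was -0.09.

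SAP (AT5G35770, STERILE APETALA), a regulator of flower and organ growth, had the widest within-group spread of the 8, with SDs of 1.14 in normal CO2 and 1.81 in low CO2 (n = 5 each). Its pairs were at 0.14, -1.96, -1.72, -2.62 and -2.67 in normal CO2 and at 0.28, -3.49, -2.20, -2.55 and -4.56 in low CO2. Columns 1 and 2 were the highest in both groups. The difference of -0.74 ± 0.74 (SE) ran from -1.44 to -0.22 without 1 pair.

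AILP1 (AT5G19140) is named for its likeness to aluminium-induced proteins. It was among the dimmest members, with 1 value of 0 in normal CO2 and 2 in low CO2. The means were -3.56 ± 0.69 and -4.04 ± 0.68 (SD, n = 5 each), a difference of -0.49 ± 0.51 (SE), no larger than its SE. The difference was -0.24 without low CO2 columns 7 and 8 and -1.66 with zeros set to the lowest positive value. The 5 low CO2 pairs lay between -5.01 and -3.38 and the 5 normal CO2 pairs between -4.40 and -2.63.

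**Figure D1:**
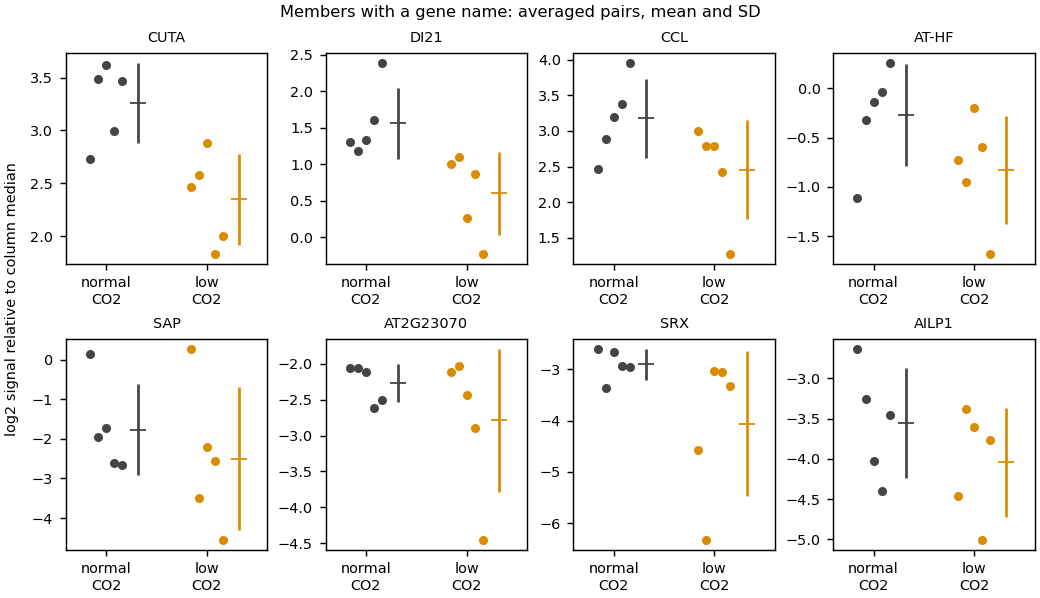
Log2 signal relative to the column median (vertical axis, a separate scale per panel) of the 8 members with a gene name in the reference table; points are the 5 averaged pairs a group in the order of their column numbers, and the bar beside them is the mean and SD. DI21 is the 1 panel of the 8 without overlap between the groups, and in CUTA 4 of 5 low CO2 pairs are under the whole normal CO2 range.

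Among the members known by a locus code, AT1G62250 had the largest difference of the bright probes. Its pairs were at 2.76, 3.60, 3.73, 4.04 and 4.38 in normal CO2 and at 2.27, 2.15, 2.77, 2.37 and 2.56 in low CO2, and the median of its deposited intensity was 6.38 and 2.44. Its deposited intensities did not overlap, as the lowest normal CO2 column was at 3.77 and the highest low CO2 column at 2.78. On the centred scale the lowest normal CO2 pair, columns 1 and 2, lay 0.01 below the highest low CO2 pair. The groups were otherwise apart on that scale, with a difference of -1.28 ± 0.26 (SE). AT4G31470 was at 1.88, 2.44, 2.34, 2.42 and 2.85 in normal CO2 and at 1.80, 1.63, 1.81, 1.49 and 1.37 in low CO2, without overlap, a difference of -0.76 ± 0.18 (SE). In the limma fit over all 3277 tested probes, these were the 2 of 55 members among the probes called lower at an adjusted p of 0.05, where 1.74% of all tested probes were. The call changes with the fit: a replicate block called AT1G62250, AT2G37580 and CUTA but not AT4G31470, and 5 of the 10 fits without 1 pair called no member. The rule used the same contrast, so nothing is read from these counts.

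The other bright members differed by less. AT2G46300 stood at 2.71, 2.76, 3.0, 2.33 and 2.94 in normal CO2 and at 2.73, 2.35, 2.27, 1.87 and 0.80 in low CO2. Its difference of -0.74 ± 0.29 (SE) became -0.44 without low CO2 columns 9 and 10. AT1G21660 and AT4G27390 had similar levels in normal CO2, 1.91 ± 0.38 and 1.91 ± 0.19 (SD, n = 5 each), and similar differences of -0.66 ± 0.20 and -0.65 ± 0.20 (SE). In AT4G27390 the groups did not overlap, while in AT1G21660 3 of 5 low CO2 pairs were under the whole normal CO2 range. AT2G22890 varied more, with an SD of 0.83 in normal CO2 (n = 5), and 1 of its 5 low CO2 pairs were under the whole normal CO2 range (difference -0.64 ± 0.36, SE, or -0.37 without normal CO2 columns 9 and 10).

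The remaining 6 bright members had differences between -0.62 (AT4G16610) and -0.50 (AT4G29890). AT1G31220, AT2G36480, AT2G47360 and AT3G61870 lay between these at -0.57, -0.56, -0.54 and -0.50, with SEs of 0.20 to 0.22. In AT4G29890 the low CO2 pairs were at 1.72, -0.34, 2.17, 1.28 and 0.90, and the difference was -0.13 without the pair of columns 3 and 4. AT4G29890 was also the member nearest to the threshold, at -0.5001 over single columns, and AT3G61870 was next at -0.5017. Just outside it were AT4G12740 at -0.4996 and AT5G02050 at -0.4965, so nothing in the values separates the last members from the first genes not taken.

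**Figure D2:**
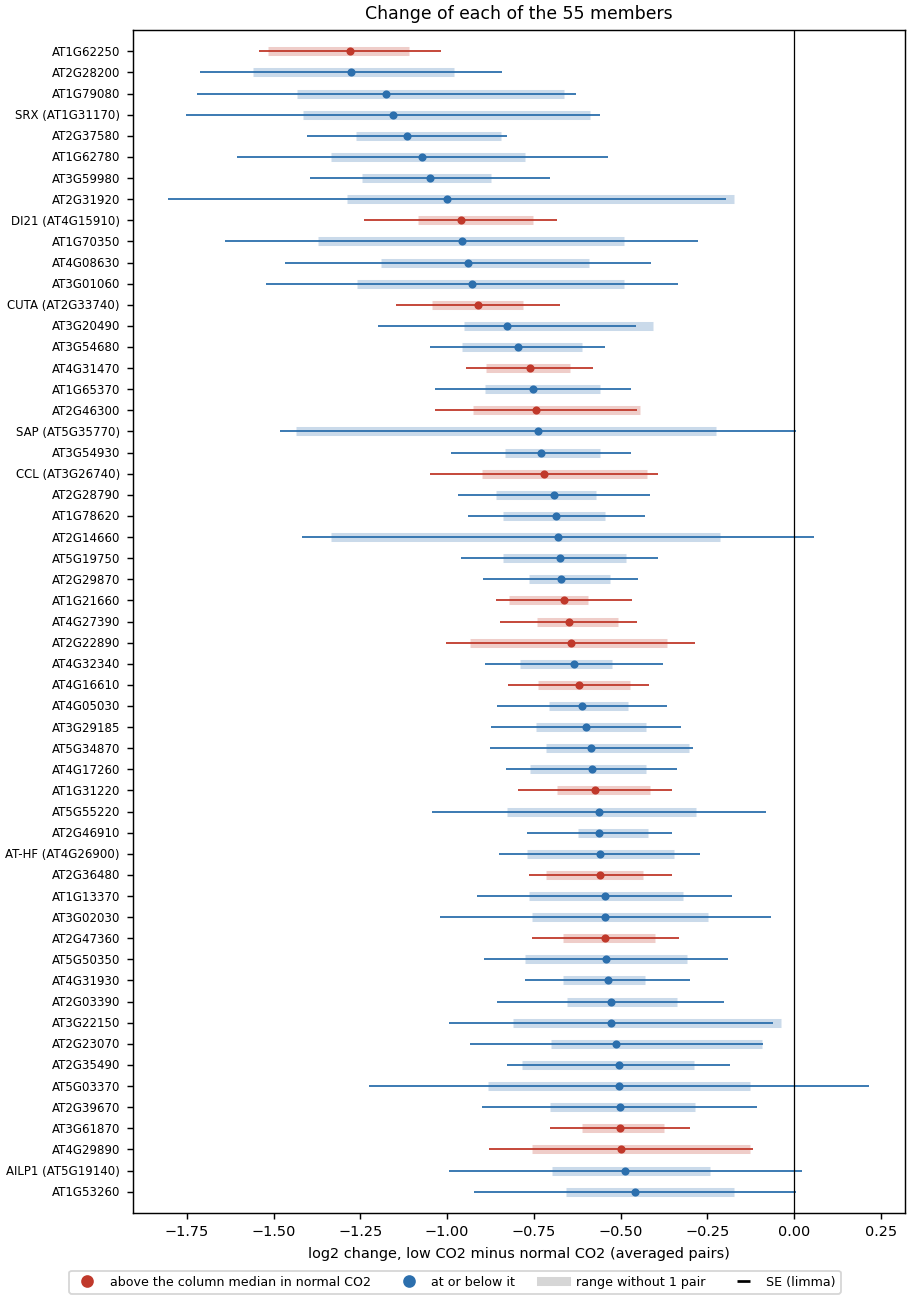
Log2 difference, low CO2 minus normal CO2, of the 55 members over 5 averaged pairs a group, with limma's SE as a line and the range over the 10 fits without 1 pair as a pale band; red marks the 15 members above the column median in normal CO2 and blue the other 40. All differences lie below 0, as the choice of members requires, and the bands of AT3G22150 and AT2G23070 come closest to 0.

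Of the 10 members with the largest difference over single columns, AT1G62250 was bright and the other 9 were dim. They include SRX, described above. AT2G37580 was the clearest of them, at -0.98, -1.28, -0.85, -0.92 and -1.27 in normal CO2 and at -1.59, -2.06, -2.05, -1.93 and -3.25 in low CO2. Its groups lay 0.31 apart, the widest gap of any member, and its difference was -1.12 ± 0.29 (SE). AT3G59980 was at -1.85, -1.83, -2.14, -2.12 and -1.86 in normal CO2 and at -3.61, -2.25, -3.26, -2.22 and -3.71 in low CO2. On the centred scale its groups did not overlap either, and 2 of its low CO2 pairs lay close to the normal CO2 range.

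In AT2G28200 the normal CO2 pairs were at -2.01, -3.18, -2.04, -2.41 and -2.31, and the low CO2 pairs at -2.55, -3.41, -3.95, -3.57 and -4.86. All but the low CO2 pair of columns 1 and 2 were under the whole normal CO2 range. In AT1G79080 the pairs were at -1.96, -2.69, -0.95, -1.69 and -3.11 in normal CO2 and at -2.82, -2.75, -5.31, -2.39 and -3.02 in low CO2. The groups overlapped but for low CO2 columns 5 and 6, without which the difference was -0.66 in place of -1.18. AT1G62780 was at -3.32, -3.27, -3.56, -2.70 and -2.19 in normal CO2 and at -3.93, -5.07, -5.26, -3.10 and -3.03 in low CO2, with 3 of 5 low CO2 pairs under the whole normal CO2 range.

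The other 3 were near the bottom of the signal range. AT1G70350 was at -2.64, -3.49, -2.35, -5.18 and -3.98 in normal CO2 and at -3.44, -3.94, -4.30, -6.36 and -4.39 in low CO2, and 1 low CO2 pair lay below the normal CO2 range. Its difference was -1.28 over single columns but -0.96 ± 0.68 (SE) over averaged pairs, because 3 of its 20 values were 0 and left out. It was -0.27 with a pseudocount, -0.33 with zeros set to the lowest positive value and -0.49 without low CO2 columns 7 and 8. AT2G31920 was at -3.11, -3.06, -2.72, -3.98 and -4.66 in normal CO2 and at -3.38, -4.16, -3.74, -3.43 and -7.82 in low CO2. The last of these values set its difference, which was -1.0 ± 0.81 (SE) with that pair and -0.17 without it. AT3G01060 was at -3.51, -4.11, -2.91, -2.98 and -2.82 in normal CO2 and at -5.95, -3.13, -4.39, -4.62 and -2.87 in low CO2, and its groups overlapped.

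The treatment of low values moved several of these dim members by over 1.5 times. With a pseudocount the differences of AT2G28200, AT1G62780, AT2G31920 and AT3G01060 were -0.67, -0.57, -0.26 and -0.31, and those of SAP and AT2G23070 were -0.40 and -0.25. With zeros set to the lowest positive value, AT1G79080, AT1G62780, AT3G59980, AT3G01060 and AT3G54930 were at -1.98, -1.80, -1.67, -1.68 and -1.54.

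In 10 members every low CO2 pair were under the whole normal CO2 range, where this held for 3.33% of all tested probes. Since the rule chose members by the same difference, this count describes them and supports nothing. Overlap here is that of centred averaged pairs. In deposited intensity the columns of AT1G62250 and AT1G21660, not among the 10, were apart. Those of AT2G37580 and AT4G27390, among the 10, overlapped. The 10 were DI21, AT4G31470 and AT4G27390 among the bright members and AT2G37580, AT3G59980, AT3G20490, AT3G54680, AT3G54930, AT2G29870 and AT2G46910 among the dim ones. AT3G54680 was the most even in low CO2, at -1.59, -1.57, -1.62, -1.48 and -1.39, against 0.01, -1.21, -0.38, -0.71 and -1.37 in normal CO2. The spread thus lay on the normal CO2 side, and the gap between the groups was 0.02. AT3G20490 was the opposite case, at -0.74, -1.25, -1.31, -1.22 and -1.13 in normal CO2 and at -1.69, -1.47, -3.64, -1.46 and -1.53 in low CO2. Its difference was -0.83 ± 0.37 (SE), and -0.41 without low CO2 columns 5 and 6.

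AT3G54930 was at -1.34, -1.47, -0.54, -1.14 and -1.64 in normal CO2 and at -1.78, -2.44, -1.69, -1.66 and -2.20 in low CO2. AT2G29870 was at -0.98, -0.75, -0.54, -1.16 and -0.81 and at -1.16, -1.19, -1.49, -1.67 and -2.09, with touching groups. AT2G46910 was at -0.44, -0.92, -0.83, -0.80 and -0.43 and at -1.03, -1.80, -1.0, -1.07 and -1.33. All 3 had gaps between the groups of less than 0.1, smaller than the SD within either group. AT4G27390 was at 1.84, 1.89, 1.83, 1.76 and 2.25 in normal CO2 and at 1.49, 1.62, 1.57, 0.70 and 0.94 in low CO2, with a gap of 0.14.

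**Figure D3:**
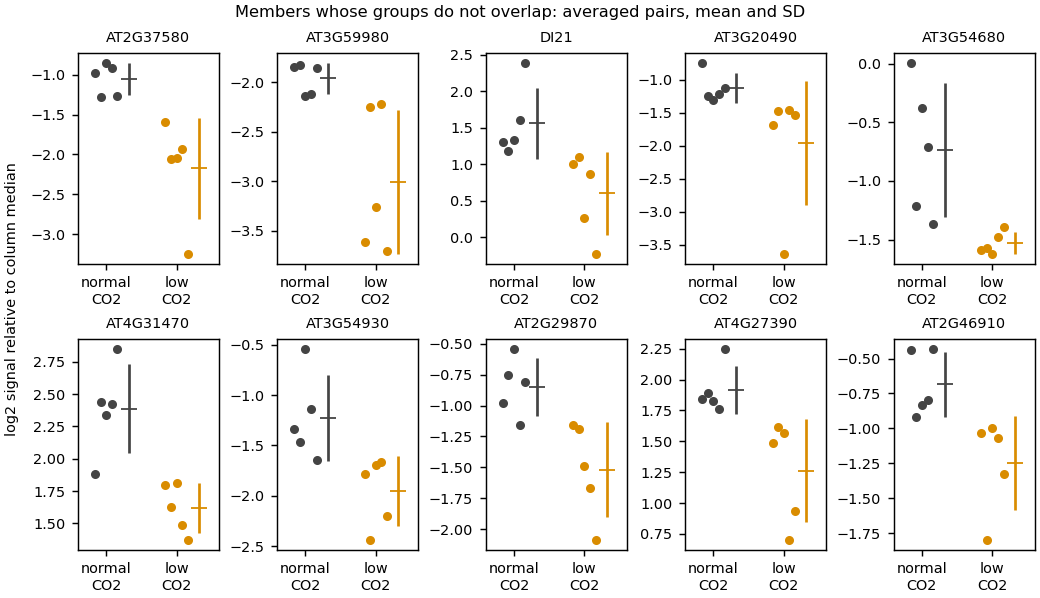
Log2 signal relative to the column median (vertical axis, a separate scale per panel) of the 10 members whose groups do not overlap; points are the 5 averaged pairs a group in the order of their column numbers, and bars are the mean and SD. On this centred scale the gap between the groups ranges from 0.31 in AT2G37580 to under 0.01 in AT2G29870.

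The remaining dim members had smaller or less even differences. AT4G08630 was lowest at -0.94 ± 0.53 (SE). AT1G65370 was at -0.75, AT2G28790 and AT1G78620 at -0.69, and AT2G14660 and AT5G19750 at -0.68. AT2G14660 was the 1 member of 55 with no low CO2 pair under the whole normal CO2 range, and its SD was 1.54 across normal CO2 pairs and 1.41 across low CO2 pairs (n = 5 each). AT4G32340, AT4G05030 and AT3G29185 were at -0.63, -0.61 and -0.60, and AT5G34870 and AT4G17260 at -0.58. A further group lay between -0.56 and -0.53: AT5G55220, AT1G13370, AT3G02030, AT5G50350, AT4G31930, AT2G03390 and AT3G22150. AT2G35490, AT5G03370, AT2G39670 and AT1G53260 were at -0.51, -0.50, -0.50 and -0.46. In AT3G22150 the low CO2 pairs were at -1.66, -1.35, -2.25, -4.43 and -2.67, and without the fourth of these the difference was -0.04 in place of -0.53.

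Members were spread unevenly over the range of brightness. In normal CO2, 40 of the 55 (72.7%) lay at or below the column median, against 321 of the 642 named genes (50%). A level below -2 was found in 29.1% of members and 12.8% of named genes, and a level above 1 in 23.6% and 24.6%. A value of 0 in at least 1 low CO2 column was found in 12 members (21.8%), all of them dim, and in 7.94% of named genes. The level in normal CO2 enters the difference that chose the members, so these shares are not independent of the rule.

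The difference between the groups also moved with brightness over all named genes. Those with a mean level over all pairs of -2 or less had a median difference of -0.21, those from -2 to -1 of -0.20, those from -1 to 0 of 0.03, those from 0 to 1 of 0.10, and those above 1 of 0.18. Members made up 21 of 89 named genes in the dimmest of these bands, 16 of 96, 5 of 141 and 1 of 143 in the next 3, and 12 of 173 in the brightest. Measured against the median of all probes of their band, all 15 bright members and 20 of the 40 dim ones lay 0.5 or more below. That median was 0.08 in the band from 0 to 1 and 0.15 in the band above 1. Members in these bands, chosen at -0.5 or lower, could therefore not fail. The bright members AT4G16610 and AT1G31220 lay in the band from -1 to 0, since bands follow the mean over all pairs. The median of that band was -0.03, so these genes could have failed. Nothing is read from the count of bright members. This comparison was chosen after the values were seen. The 10th percentile of the centred columns was -2.42 on average in normal CO2 and -2.57 in low CO2, and its part in the differences of the dim members was not tested. With quantile normalization, which gives all columns the same distribution, 42 of the 55 still reached the threshold.

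**Figure D4:**
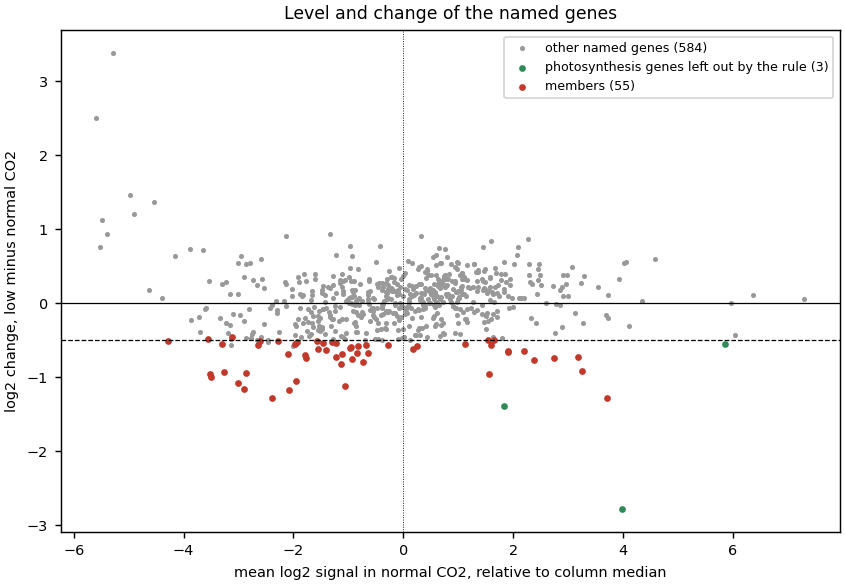
Mean log2 signal in normal CO2 relative to the column median (horizontal axis) against the log2 difference low minus normal CO2 over averaged pairs (vertical axis) for the 642 named genes; red points are the 55 members, green the 3 photosynthesis genes left out, and the dashed line marks -0.5. A few members lie just above the dashed line because the rule averaged single columns.

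On the centred scale the bright members deviated together within the groups. Over the 10 averaged pairs, after each group mean was taken away, the median correlation between 2 of the 15 bright members was 0.47, against 0.03 between 2 of the 321 named genes above the column median. Among the 40 dim members it was 0.14, against 0.04 among dim named genes, and over all 55 it was 0.16. The points share their columns and their centring. The members were also chosen from these same columns, and a pair that is low in low CO2 or high in normal CO2 can favour the choice. Taking away the group means does not remove this. Named genes were not chosen in that way, so they are not a like reference for these correlations. The highest single correlations were 0.93 for AT2G46300 with AT2G23070 and with AT2G29870, and 0.92 for CUTA with AT1G21660.

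In normal CO2 the shared deviation ran between 2 pairs. In columns 1 and 2, 14 of the 15 bright members were below their group mean, by a median of 0.47, so the signed value was -0.47, and in columns 9 and 10, 14 of 15 were above it, by 0.46. Bright named genes deviated there by -0.07 and 0.08. These columns also had the highest and the lowest column median before centring, -0.77 and -1.59 on the log2 scale, where the other pairs of both groups lay between -1.35 and -1.06. Without centring, the deviations of the bright members in these pairs were -0.08 and 0.03, and 6 and 8 of 15 were above their mean. With quantile normalization the deviations were -0.33 and 0.20, and 4 and 12 of 15 were above. The size of this median deviation thus depends on the centring, which does not say how the pairs of any single gene are ordered. For CUTA the difference between the groups was -0.91 with centring, -0.89 without and -1.0 with quantile normalization.

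In low CO2, columns 9 and 10 were the low ones. There 13 of 15 bright members lay below their group mean, with a median deviation of -0.32, and this was -0.34 without centring and -0.36 with quantile normalization. For 19 of the 55 members, leaving out this pair brought the difference nearest to 0, more than for any other pair. Next were the low CO2 pair of columns 7 and 8 and the normal CO2 pair of columns 9 and 10, with 9 members each.

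**Figure D5:**
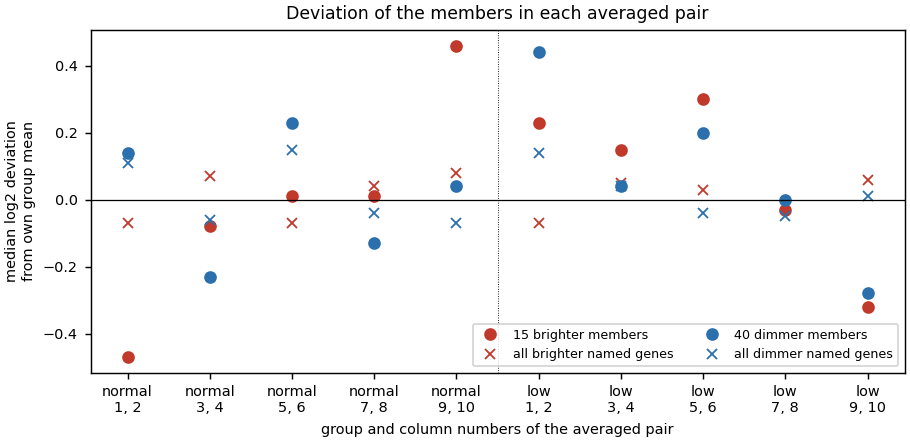
Median log2 deviation from the own group mean (vertical axis) in each averaged pair (horizontal axis) for the 15 bright members (red points), the 40 dim members (blue points) and all named genes of the same brightness (crosses). The bright members are lowest in normal CO2 columns 1 and 2 at -0.47 and highest in normal CO2 columns 9 and 10 at 0.46, while the crosses stay within 0.15 of 0.

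The median SD between pairs within a group was 0.53 for members and 0.36 for named genes. Members had a median of 0.43 across normal CO2 pairs and of 0.61 across low CO2 pairs, where named genes had 0.31 and 0.35. In 30.9% of members and 42.7% of named genes the SD was smaller in low CO2. These SDs are not matched for brightness, and a larger share of members than of named genes was dim. The median SE of the difference was 0.36 for dim members and 0.27 for dim named genes. It was 0.22 for bright members and 0.19 for bright named genes. The spread enters the values that chose the members, so these medians are a description.

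By locus code, 11, 16, 10, 11 and 7 members lay on chromosomes 1 to 5, against 158, 121, 120, 115 and 126 named genes. Chromosome 2 thus held 29.1% of members and 18.8% of named genes. SRX and AT1G31220 were the nearest neighbours, with 4 protein-coding genes between them in the TAIR10.1 annotation, and no other adjacent pair of members lay within 10 genes of each other. Probe numbers that leave 1 when divided by 6 were 16.4% of members and 19% of named genes. Among the bright members they were 5 of 15 (AT1G62250, CUTA, CCL, AT4G16610 and AT2G47360), against 20.9% of bright named genes, and the part of the probe number in their differences was not tested.

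Membership itself varied with the samples. When the rule was applied to single columns without 1 averaged pair, 21 of the 55 genes stayed members in all 10 cases. Of these, 6 were bright (AT1G62250, DI21, CUTA, AT4G31470, AT1G21660 and AT4G27390) and 15 dim. These cases are not the fits of averaged pairs. In 27 members, leaving out 1 pair moved the difference by over 1.5 times. These were 4 bright members and 23 dim ones. When no centring, quantile normalization, averaged pairs, a pseudocount, a floor for zeros and the median of the columns were also required, 15 genes remained. Among these were AT1G62250, CUTA, AT4G31470 and AT1G21660 of the bright members, and AT2G28200, AT2G37580 and AT3G59980 of the dim ones.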

How the data were processed

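Total RNA of 20 samples, 10 a group, was measured on an array of 3439 probes. Each sample has 1 intensity value per probe, as the authors deposited it on a linear scale. How they scaled it, corrected it for background or built the array was not given in these sources.

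Values of 0 were treated as missing, log2 was taken of the rest without a pseudocount, and each column was centred on its median. Neighbouring column numbers were averaged. The 3277 probes measured in 3 or more averaged pairs per group were fitted with limma 3.58.1 (lmFit, eBayes with a trend) in R 4.3.3. P-values were adjusted over all of them by Benjamini-Hochberg. The code was tested on simulated data. Summaries were made in Python 3.11.15 with pandas 2.3.3.

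Genes were named through the platform annotation and RefSeq's gene table (TAIR10.1). Because no build is given for the array, no coordinates are printed. The members and the gene lists were chosen with earlier results of these data known. A list built around AT4G31470 was not used, because the tables give that gene no name, and promoter motifs were not analysed here. Every member is named. Values of every pair are given for the 10 largest differences, the members whose groups do not overlap and those in a gene list, and, beyond this rule, for the genes with a name and some others chosen after their values were seen. The number of arrays limits the precision, which each SE gives.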

Additional observations from a re-analysis of the deposited data

Results flagged for a closer look

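Each of the 55 members gave 2 groups of 5 averaged pairs, 110 in all. In 8 of these, 1 pair stood far from the other 4. Chance would give about 5.5 in genes not chosen by their values. A far pair can itself bring a gene to the threshold, so these counts are not compared. In low CO2 columns 9 and 10, AT2G31920 was at -7.82 (the other pairs -4.16 to -3.38) and AT2G37580 at -3.25 (the others -2.06 to -1.59). Without this pair their log2 differences were -0.17 and -0.85. In low CO2 columns 5 and 6, AT1G79080 was at -5.31 (the others -3.02 to -2.39) and AT3G20490 at -3.64 (the others -1.69 to -1.46), and the differences without it were -0.66 and -0.41. AT2G28790 was high in low CO2 columns 1 and 2, at -2.10 against -2.66 to -2.53. In normal CO2, AT2G14660 was at -4.72 in columns 9 and 10 against -2.03 to -0.96, and its difference without that pair was -1.33. AT4G27390 was at 2.25 in the same columns against 1.76 to 1.89, and AT4G17260 at -1.17 in columns 3 and 4 against -0.78 to -0.69.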

How the results depend on the processing

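The fit for level bands and the refits of the correlation were chosen after the data were seen. The rule selected 55 genes. With zeros set to the lowest positive value it selected a set of 86, which held 47 of the 55. A pseudocount of 0.0403 gave 30, with 27 of the 55, and a threshold of -1 left 9 by its construction. The other settings gave 41 to 57, and leaving out 1 pair gave 44 to 76. The correlation among all members, 0.16, was 0.11 to 0.26 under other scalings. The correlation among the bright members, 0.47 with centring, was not recomputed under them, so its dependence on the scaling was not tested. Over the members, 825 refits of the difference gave 2 reversals, both with zeros set to the lowest positive value: AT3G02030 at 0.177 and AT1G53260 at 0.276. Both had a 0 in normal CO2 and none in low CO2.

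Over the array, 69 of 3277 tested probes were called. Of these, 57 were lower, with 2 members among them. With 20 separate columns, which counts neighbours as independent, the total was 590 of 3224, and 293 of these were lower (29 members). With pairs as a random block the total was 173 of 3224, and 104 of these were lower (7 members). Without normal CO2 columns 1 and 2 the count was 123, and without 3 and 4, 5 and 6, 7 and 8, or 9 and 10 it fell to 37, 25, 26 and 26. Leaving out columns 3 and 4 of low CO2 gave 25, and leaving out 9 and 10 gave 36. Over all left-out pairs, 22 to 103 probes were called lower, and members called numbered 0 to 5. No member was called without normal CO2 columns 5 and 6, 7 and 8 or 9 and 10, or low CO2 columns 3 and 4 or 7 and 8. A replicate block gave 89 probes. Pairs of the same number correlated above 0.1 across the groups in 3 of 5 cases (-0.02 to 0.40). The labels do not say whether equal numbers pair the samples. The main fit used no block, and what equal numbers share was not tested. The cause of these moves was not tested unless stated.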
